A study of Mus musculus with 6 samples.

Results

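The 40 genes described here encode the coats, adaptors and sorting complexes of endocytosis, from clathrin and its AP-2 adaptor at the plasma membrane to the ESCRT, retromer and HOPS complexes on endosomes. They were the rows of the deposited count table, out of 58735 genes, whose gene name equals 1 of 40 listed symbols. That rule used no measured value, but the list was drawn up with earlier results of these data known. RNA-Seq of poly-A RNA compared 22Rv1, a human prostate cancer cell line, given vehicle (parental, 3 libraries) with its subline 22Rv1 BL-B01D1_R (3 libraries). The subline had been selected by stepwise exposure of parental cells to rising concentrations of BL-B01D1, an antibody-drug conjugate that binds EGFR and HER3 and carries a topoisomerase I inhibitor. BL-B01D1_R is a single selected line, and nothing states that the libraries of a group came from separate cultures, so the p values measure only the spread between these samples, which may be technical. The organism field of the labels says mouse, but cell line and gene identifiers are human, and the counts were read as human on hg38. The labels give BL-B01D1 as the treatment of the subline, so effects of selection and of drug present at harvest cannot be told apart.

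An antibody-drug conjugate is generally taken into the cell and delivered to lysosomes, where its payload is freed, and these genes build that route. In clathrin-mediated endocytosis AP-2 binds the cargo receptor and the membrane lipid, clathrin polymerizes over it, membrane-bending proteins deepen the pit and dynamin cuts the neck. On the early endosome the cargo is then either returned by retromer and recycling proteins or sorted by the ESCRT machinery into internal vesicles, and HOPS tethers the late endosome to the lysosome. EGFR is a classic cargo of this path.

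Total counts per library ranged from 13821639 to 17251491, and 3 counts corresponded to 0.174 to 0.216 counts scaled to a library size of 1000000 (CPM). Levels are given as FPKM, that is, CPM scaled by TMM and divided by gene length in kilobases, with mean ± SD of 3 libraries. Of 9 markers of luminal prostate cancer cells all 9 were expressed, with a summed level of 2513 to 2588 CPM in parental and 2518 to 2571 CPM in BL-B01D1_R libraries, while KRT5 (basal), CDH5 (endothelial) and CD3E (T cell) had no count. Within that sum 5 luminal markers rose and 3 fell, with log2 fold changes from -0.48 for HOXB13 (FDR = 2.29e-17) to 0.91 for KLK3 (FDR = 6.06e-04, both by edgeR). The basal, endothelial and leukocyte lists each summed to under 1 CPM in every library. The summed level of 3 neuroendocrine markers was 135 to 149 CPM in parental and 110 to 118 CPM in BL-B01D1_R libraries, with CHGA lower by a log2 value of -2.26 (FDR = 2.49e-24 by edgeR's quasi-likelihood test) and SYP at 0.04. The summed level of 3 fibroblast markers was 15.1 to 17.1 CPM and 13.0 to 13.1 CPM, respectively, most of it from COL1A1. The part of these markers in the results below was not tested, and in bulk RNA a change in the share of cells and a change in RNA per cell cannot be told apart.

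All 40 genes passed the filter on low counts and were tested. Differential expression was tested by quasi-likelihood in edgeR, with p values adjusted by Benjamini-Hochberg over 17142 genes, and a gene is said to have risen or fallen in BL-B01D1_R at an FDR of less than 0.05. Of the 40 genes, 10 rose, against 17.1% of all genes tested, and 2 fell, against 18.4%, while 28 did not pass. The genes that rose were FLOT2, VPS18, AP2A1, CLTB, EPS15, VPS41, PICALM, VPS26A, AP2S1 and CLTC, by 1.06- to 1.19-fold. SNX9 and FLOT1 fell by 20.3% and 12.8%. None reached the additional threshold of an absolute log2 fold change greater than 1, which 2.53% of all genes passed upward and 2.84% downward. At an unadjusted p of less than 0.05, 14 of the 40 differed, as did 7442 of the 17142 genes tested. The libraries of the groups did not overlap for 18 genes, or 45% of them, against 44.8% of all genes.

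The changes in these genes were small beside those of the transcriptome. The median absolute log2 fold change was 0.071 over the 40 genes and 0.172 over all genes, and the median signed value was 0.016 against 0.0038. Their median level was also higher, at 14.5 FPKM against 4.35 FPKM, and the median standard error (SE) of the log2 fold change lower, at 0.047 against 0.088. For 36 genes (90.0%) the 95% interval of the log2 fold change lay within ±0.5, as it did for 58.6% of all genes. Among 123 other tested genes of the same pathways, the median absolute value was 0.106, and 87.0% of intervals lay within ±0.5. The summed level of the 40 genes was 812 ± 5.83 FPKM in parental cells and 844 ± 2.08 FPKM in BL-B01D1_R.

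**Figure D1:**
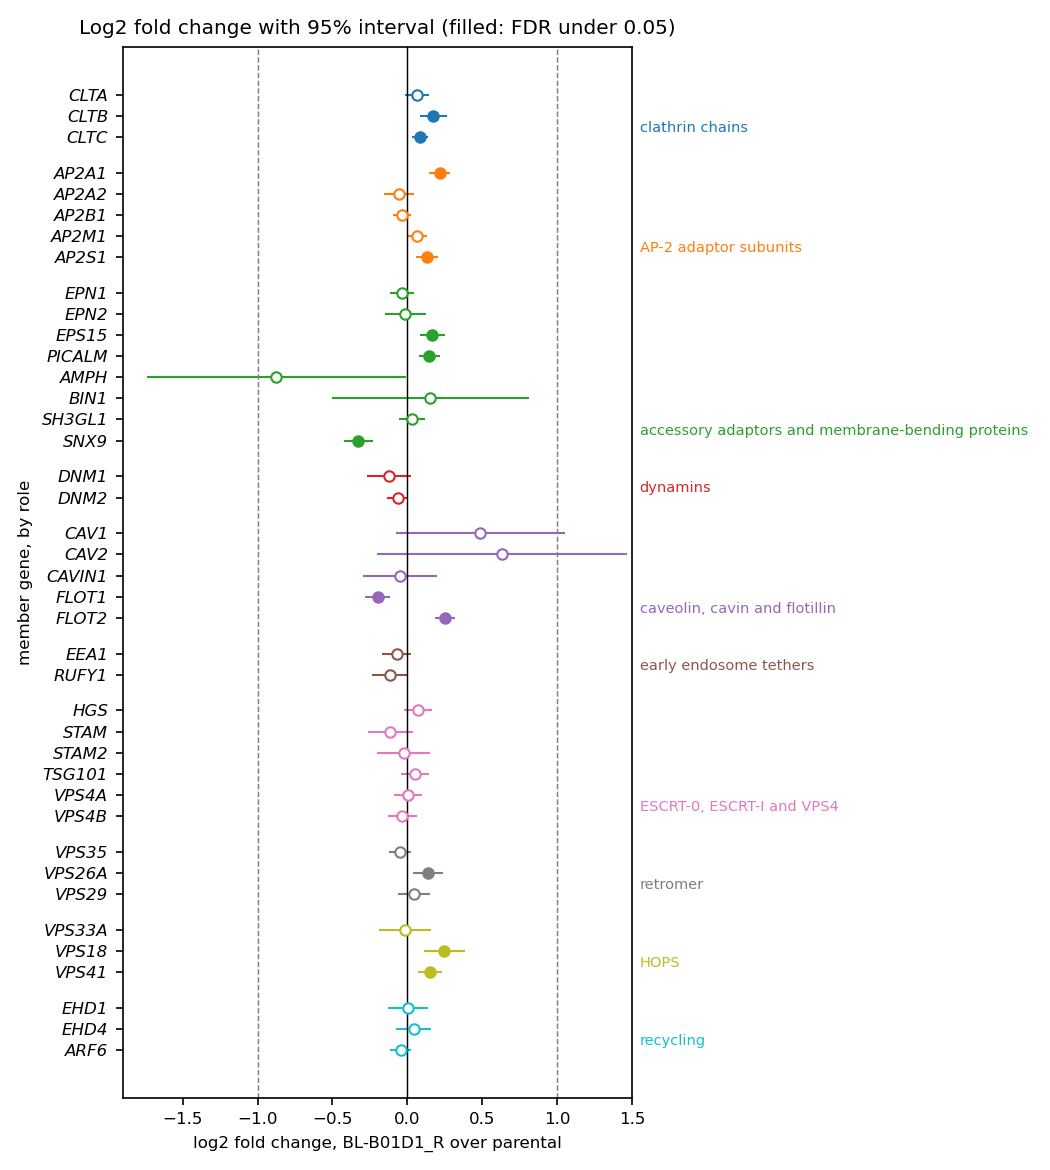
Log2 fold change of BL-B01D1_R over parental (x axis) for each of the 40 genes (y axis, grouped by role), with bars for the 95% interval from edgeR and filled points for an FDR of less than 0.05. The 12 filled points lie between SNX9 at -0.33 and FLOT2 at 0.25, inside the dashed lines at -1 and 1, and the widest bars belong to AMPH, BIN1, CAV1 and CAV2.

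A mean level above 10 FPKM was found for 22 genes, a level of 1 to 10 FPKM for 14 and a level under 1 FPKM for 4, which were AMPH, BIN1, CAV1 and CAV2. The highest was AP2S1, the sigma subunit of AP-2, with 79.1 ± 1.09 FPKM in parental cells, and the lowest CAV2, with 0.0885 ± 0.0192 FPKM. Replicate libraries lay close together, with a median coefficient of variation of 3.63% in parental and 3.90% in BL-B01D1_R libraries.

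**Figure D2:**
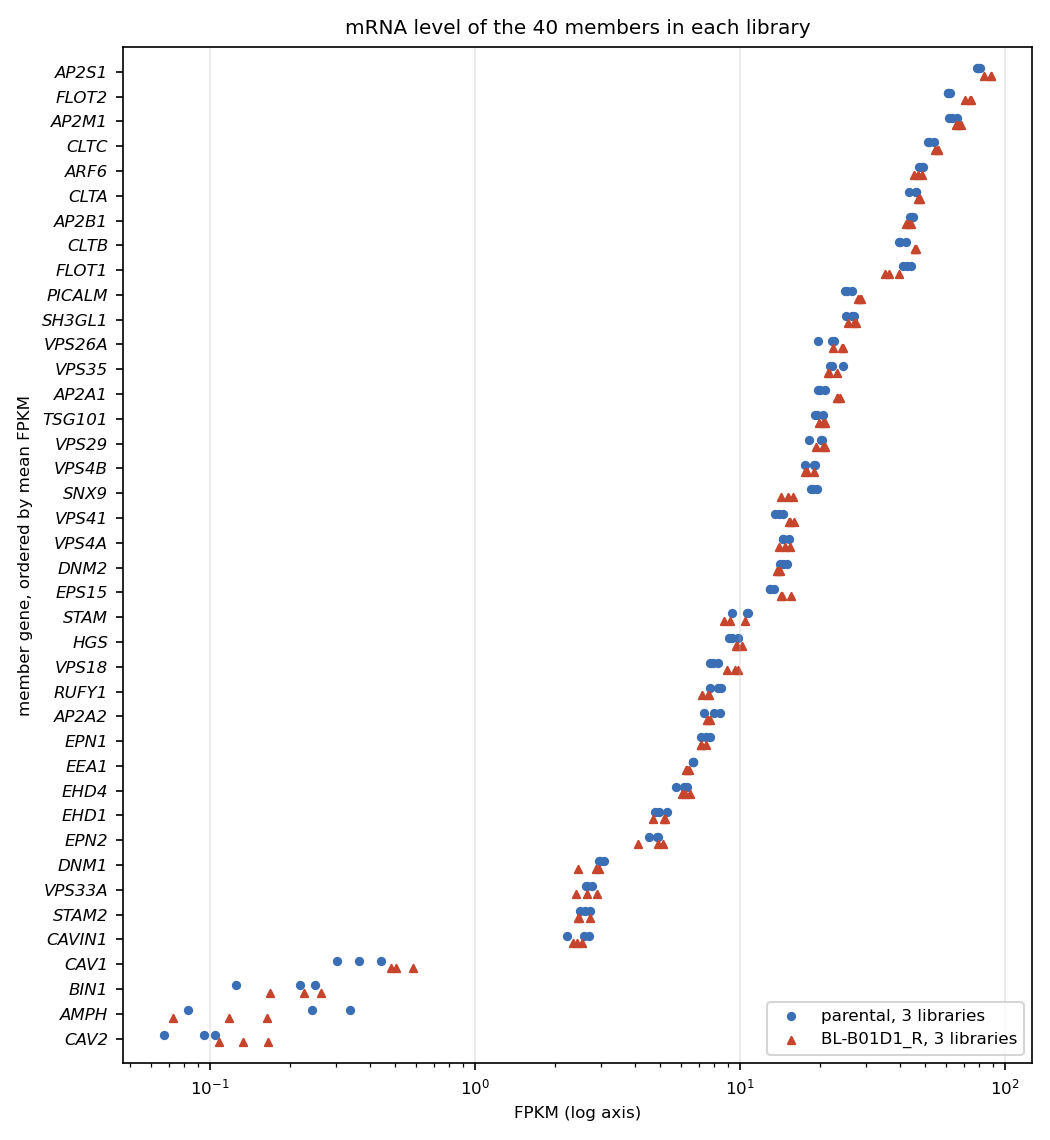
Level of each of the 40 genes in each library as FPKM (x axis, log scale), with genes ordered by mean level (y axis), circles for the 3 parental and triangles for the 3 BL-B01D1_R libraries. The libraries of a gene mostly sit within a narrow band, from AP2S1 at the top to AMPH and CAV2 at the bottom, where the points spread most.

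Among the 3 clathrin chains, the heavy chain and 1 of the light chains rose, against 17.1% of all genes tested. CLTB, a light chain that lines the outside of the lattice (chr5:176392455-176416569, minus strand), measured 39.94, 40.01 and 42.26 FPKM in parental and 45.7, 46.3 and 45.7 FPKM in BL-B01D1_R libraries. Every BL-B01D1_R library was above every parental one, and the log2 fold change was 0.17 (SE 0.043, FDR = 0.00132, edgeR). CLTC, the heavy chain that forms the legs of the triskelion (chr17:59619689-59696956, plus strand), measured 54.2, 51.1 and 51.8 FPKM against 54.7, 55.9 and 55.7 FPKM. Its groups were separated by less than the spread among the parental libraries, with a log2 fold change of 0.08 (SE 0.026, FDR = 0.0122, edgeR), and it no longer passed without parental library 2 (FDR = 0.0966) or without BL-B01D1_R library 2 (FDR = 0.0557). The other light chain, CLTA, had 45.2 ± 1.42 and 47.3 ± 0.541 FPKM and did not pass (log2 fold change 0.07, FDR = 0.198, edgeR). The summed level of the 3 chains was 138 ± 3.11 FPKM in parental cells and 149 ± 0.625 FPKM in BL-B01D1_R.

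Of the 5 AP-2 subunits, AP2A1 and AP2S1 rose, against 17.1% of all genes tested. AP2A1, 1 of the alternative alpha subunits that bind membrane phosphoinositide and accessory proteins (chr19:49766968-49807113, plus strand), measured 21.0, 19.7 and 20.0 FPKM in parental and 23.8, 23.3 and 23.5 FPKM in BL-B01D1_R libraries. The groups stood clearly apart, with a log2 fold change of 0.22 (SE 0.034, FDR = 1.55e-06, edgeR). AP2S1, which helps hold dileucine signals in cargo tails (chr19:46838136-46850992, minus strand), measured 78.1, 80.3 and 78.8 FPKM against 88.3, 88.2 and 83.1 FPKM, again without overlap (log2 fold change 0.13, SE 0.037, FDR = 0.00470, edgeR). The other alpha subunit, AP2A2, was at 7.91 ± 0.523 and 7.604 ± 0.111 FPKM, with a log2 fold change of -0.06 and a 95% interval of -0.15 to 0.04. AP2M1, the mu subunit that reads tyrosine signals, had an FDR of 0.0854 in edgeR (log2 fold change 0.07) and passed only without parental library 3. AP2B1, the beta subunit that binds clathrin, had an FDR of 0.377 in edgeR (log2 fold change -0.03).

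Accessory adaptors and membrane-bending proteins moved in different directions. SNX9, which binds curved membrane and recruits dynamin and actin regulators to the neck of the pit (chr6:157700387-157945077, plus strand), had the lowest log2 fold change of the genes that passed. Its level was 19.6, 18.5 and 18.8 FPKM in parental and 15.2, 14.2 and 15.9 FPKM in BL-B01D1_R libraries. All BL-B01D1_R libraries lay below all parental libraries, and the log2 fold change was -0.33 (SE 0.047, FDR = 3.53e-07, edgeR). EPS15, a scaffold that gathers AP-2 and ubiquitinated cargo at early pits (chr1:51354263-51519328, minus strand), measured 13.4, 13.0 and 12.9 FPKM against 14.4, 15.6 and 14.3 FPKM (log2 fold change 0.17, SE 0.042, FDR = 0.00157, edgeR). PICALM, an adaptor that binds phosphoinositide and clathrin and sorts vesicle SNAREs (chr11:85957684-86069882, minus strand), measured 25.4, 26.4 and 25.0 FPKM against 27.9, 28.7 and 28.4 FPKM (log2 fold change 0.15, SE 0.035, FDR = 9.51e-04, edgeR). For both, the lowest BL-B01D1_R library was above the highest parental one.

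The epsins EPN1 and EPN2, which couple ubiquitinated cargo to the coat and bend the membrane, did not pass, with log2 fold changes of -0.04 and -0.01. SH3GL1, an endophilin of the same pits, was at 0.03. The amphiphysins AMPH and BIN1, curved proteins that link clathrin to dynamin, were close to the limit of counting. AMPH (chr7:38383704-38631567, minus strand) measured 0.0823, 0.338 and 0.243 FPKM in parental and 0.118, 0.0724 and 0.164 FPKM in BL-B01D1_R libraries, from 6 to 32 counts per library. The groups overlapped, because parental library 1 was low, and the log2 fold change of -0.87 had a 95% interval of -1.74 to -0.0098 (FDR = 0.111, edgeR). Without parental library 1 the value was -1.29 (FDR = 0.0125, edgeR), and without parental library 2 it was -0.39 (FDR = 0.618, edgeR). BIN1 rested on 15 to 30 counts per library and had a log2 fold change of 0.15 with an interval of -0.50 to 0.81.

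The dynamins, the GTPases that sever the neck of the pit, did not pass. DNM1, the form most abundant in neurons, measured 2.97, 3.06 and 2.94 FPKM in parental and 2.93, 2.86 and 2.44 FPKM in BL-B01D1_R libraries. The groups did not overlap but nearly met, and the log2 fold change was -0.12 with an interval of -0.27 to 0.02 (FDR = 0.199, edgeR). DNM2, the ubiquitous form, was the more abundant at 14.6 ± 0.445 and 13.9 ± 0.170 FPKM (log2 fold change -0.07, FDR = 0.132, edgeR).

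Among the genes of clathrin-independent uptake, the flotillins changed in opposite directions. Flotillins are membrane scaffold proteins that assemble with each other in cholesterol-rich domains. FLOT2 (chr17:28879335-28897679, minus strand) measured 62.0, 60.8 and 60.9 FPKM in parental and 70.7, 74.2 and 73.7 FPKM in BL-B01D1_R libraries. It had the highest log2 fold change of the genes that passed, at 0.25 (SE 0.032, FDR = 2.12e-08, edgeR), and the groups were far apart. FLOT1 (chr6:30727709-30742733, minus strand) measured 41.2, 42.5 and 44.2 FPKM against 36.4, 35.1 and 39.9 FPKM. Its groups did not overlap either, with every BL-B01D1_R library the lower (log2 fold change -0.20, SE 0.042, FDR = 1.91e-04, edgeR).

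Caveolar genes were weakly expressed. CAV1, the structural protein of caveolae (chr7:116524785-116561184, plus strand), measured 0.4406, 0.3647 and 0.30002 FPKM in parental and 0.502, 0.583 and 0.483 FPKM in BL-B01D1_R libraries, from 17 to 35 counts per library. CAV2, its partner (chr7:116287380-116508541, plus strand), measured 0.0670, 0.0946 and 0.104 FPKM against 0.165, 0.108 and 0.133 FPKM, from 8 to 19 counts. These neighbors on chromosome 7, 16244 bases apart, had the libraries of BL-B01D1_R above the parental ones, but neither passed the test. The log2 fold change was 0.49 with an interval of -0.07 to 1.05 for CAV1 (FDR = 0.180, edgeR) and 0.63 with an interval of -0.20 to 1.46 for CAV2 (FDR = 0.249, edgeR), so the estimated differences of 40.2% and 54.9% were not detectable at this depth. CAVIN1, the coat protein that stabilizes caveolae, was at 2.50 ± 0.249 and 2.43 ± 0.102 FPKM (log2 fold change -0.05).

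**Figure D3:**
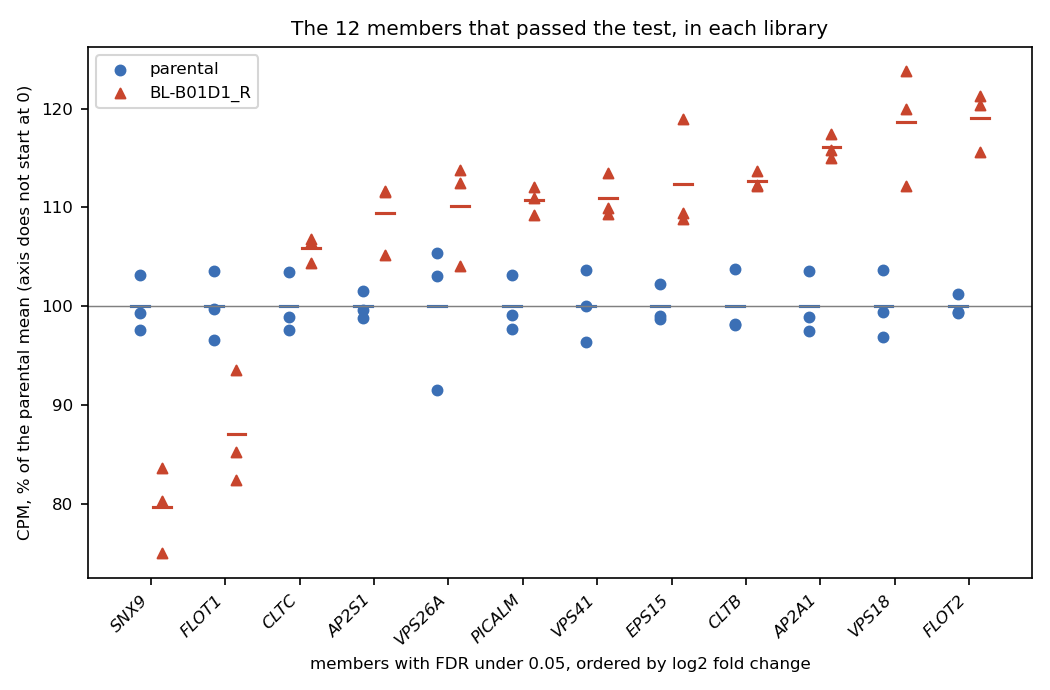
CPM of the 12 genes with an FDR of less than 0.05 in each library, as a percentage of the parental mean of the gene (y axis, which does not start at 0), with genes ordered by log2 fold change (x axis), circles for parental and triangles for BL-B01D1_R libraries and short lines for group means. SNX9 and FLOT1 lie under 100, the other genes above it, and the groups overlap for VPS26A alone.

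Neither of the 2 early endosome tethers passed, nor did 11061 of the 17142 genes tested. RUFY1, a RAB4 effector, measured 7.68, 8.23 and 8.46 FPKM in parental and 7.644, 7.177 and 7.6002 FPKM in BL-B01D1_R libraries (log2 fold change -0.12, FDR = 0.125, edgeR). The groups were apart by less than the spread within either. EEA1, the long coiled-coil tether of RAB5 endosomes, was at 6.64 ± 0.0174 and 6.32 ± 0.0836 FPKM (log2 fold change -0.07, FDR = 0.265, edgeR).

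The ESCRT genes, which sort ubiquitinated receptors into multivesicular bodies, did not pass either, in 6 of 6 cases. Of all genes tested, 11061 of 17142 did not pass. Their log2 fold changes ran from -0.11 for STAM to 0.07 for HGS, which pair as ESCRT-0, the first complex to bind ubiquitinated cargo. STAM, the lowest, measured 10.7, 9.30 and 10.7 FPKM in parental and 10.4, 8.71 and 9.13 FPKM in BL-B01D1_R libraries, and the groups overlapped (95% interval of the log2 fold change -0.27 to 0.04). STAM2, the second STAM, had a log2 fold change of -0.02, TSG101 of ESCRT-I 0.05, and the ATPases VPS4A and VPS4B, which take the complex apart, 0.0032 and -0.03. The summed level of the 6 genes was 75.3 ± 1.82 FPKM in parental cells and 75.2 ± 0.698 FPKM in BL-B01D1_R.

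Retromer returns receptors from endosomes to the Golgi and the cell surface. Of its 3 listed subunits 1 rose, against 17.1% of all genes tested. VPS26A, an arrestin-like subunit (chr10:69123512-69172861, plus strand), measured 22.2, 22.7 and 19.7 FPKM in parental and 24.2, 22.4 and 24.5 FPKM in BL-B01D1_R libraries. It was the 1 gene that passed although its groups overlapped, with a log2 fold change of 0.14 (SE 0.050, FDR = 0.0289, edgeR). The call was lost with DESeq2 (FDR = 0.0807), and without parental library 3 the value was 0.08 (FDR = 0.240, edgeR). It was also lost without BL-B01D1_R library 1 (FDR = 0.108) or 3 (FDR = 0.127). VPS35, the scaffold of the complex, and VPS29 did not pass, with log2 fold changes of -0.05 and 0.04. VPS26B, the alternative to VPS26A among the other genes of the same pathways, did not pass either (log2 fold change 0.0072, FDR = 0.922, edgeR).

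Of the 3 HOPS genes listed, VPS18 and VPS41 rose, against 17.1% of all genes tested. VPS18, a core subunit shared with the early endosomal CORVET complex (chr15:40894430-40903975, plus strand), measured 7.92, 7.72 and 8.26 FPKM in parental and 8.94, 9.55 and 9.86 FPKM in BL-B01D1_R libraries. All BL-B01D1_R libraries were higher (log2 fold change 0.25, SE 0.066, FDR = 0.00282, edgeR). VPS41, the HOPS-specific subunit that contacts late endosomes (chr7:38722963-38932394, minus strand), measured 14.6, 13.5 and 14.0 FPKM against 15.4, 15.9 and 15.4 FPKM, also without overlap (log2 fold change 0.15, SE 0.040, FDR = 0.00264, edgeR). VPS33A, which binds SNAREs for fusion, was at 2.68 ± 0.0814 and 2.65 ± 0.238 FPKM (log2 fold change -0.01). VPS41 lies 91396 bases from AMPH, which did not pass and rested on 6 to 32 counts per library (log2 fold change -0.87, FDR = 0.111, edgeR).

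The recycling genes did not pass. ARF6, a small GTPase of the plasma membrane and recycling endosome, measured 48.6, 47.2 and 49.2 FPKM in parental and 45.4, 46.8 and 48.5 FPKM in BL-B01D1_R libraries, with overlapping groups (log2 fold change -0.04, 95% interval -0.11 to 0.03). EHD1 and EHD4, ATPases that shape recycling tubules, had log2 fold changes of 0.0038 and 0.04. For the 28 genes that did not pass, which does not show that the lines were alike, the estimates were above 0 in 12 and under 0 in 16. The interval lay within ±0.3 for 24 of them, the exceptions being AMPH, BIN1, CAV1 and CAV2.

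Ratios within 10 pairs of related genes were compared library by library, a measure that does not depend on scaling of the libraries. The ratio of FLOT1 to FLOT2, per gene length, was 0.697 in parental cells and 0.509 in BL-B01D1_R, a difference of -0.45 on the log2 scale. AP2A1 exceeded AP2A2 by 2.56-fold and 3.09-fold, a log2 difference of 0.27, and CLTA exceeded CLTB by 1.11-fold and 1.03-fold, a log2 difference of -0.11. In these 3 pairs the groups did not overlap, and a two-sided exact permutation test gave p = 0.1, the smallest that 3 against 3 libraries allow, with an adjusted p of 0.333 over the 10 pairs. The groups overlapped in the other 7 pairs, which were EPN1/EPN2, DNM1/DNM2, CAV1/CAV2, STAM/STAM2, VPS4A/VPS4B, EHD1/EHD4 and AMPH/BIN1, with exact permutation p values from 0.2 to 0.9.

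**Figure D4:**
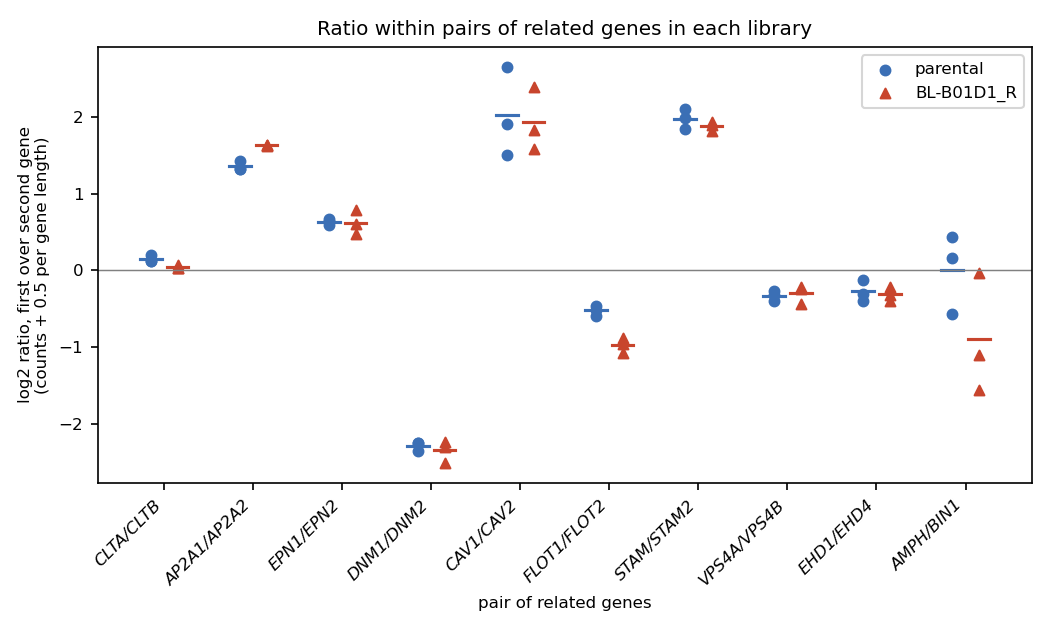
Log2 ratio of the first to the second gene of each of 10 pairs (y axis, counts plus 0.5 per gene length) in the 3 parental (circles) and 3 BL-B01D1_R libraries (triangles), with short lines for group means. The groups are apart for CLTA/CLTB, AP2A1/AP2A2 and FLOT1/FLOT2, with FLOT1/FLOT2 moving from a mean of -0.52 to -0.97.

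A list of 128 other genes of the same pathways was treated in the same way, of which 123 were tested. In it 31 genes rose and 21 fell, against 17.1% and 18.4% of all genes tested. Among the genes that passed, the highest log2 fold changes were those of ACAP1, an ARF6 GTPase-activating protein, at 0.51 (FDR = 0.0289), whose groups overlapped, the epsin EPN3 at 0.46 (FDR = 1.06e-07), the second clathrin heavy chain CLTCL1 at 0.46 (FDR = 1.30e-05), the ARF6 exchange factor PSD4 at 0.44 (FDR = 4.75e-10) and the actin-linking HIP1R at 0.37 (FDR = 2.32e-05), all by edgeR. The lowest among the genes that passed were those of DNM3, a neuronal dynamin, at -1.20 (FDR = 9.25e-06), the recycling ATPase EHD3 at -1.04 (FDR = 1.98e-04), the neuronal endophilin SH3GL2 at -0.94 (FDR = 6.82e-06), AP1S2 of the Golgi adaptor AP-1 at -0.43 (FDR = 4.97e-04) and FCHO1, which starts pits, at -0.39 (FDR = 0.00301), all by edgeR. All of these lay below the median level of the genes tested, 4.35 FPKM. In parental cells and BL-B01D1_R, DNM3 was at 0.442 ± 0.0478 and 0.192 ± 0.0419 FPKM and EHD3 at 0.916 ± 0.0568 and 0.443 ± 0.104 FPKM. SH3GL2 was at 2.91 ± 0.173 and 1.51 ± 0.220 FPKM, AP1S2 at 3.39 ± 0.305 and 2.51 ± 0.189 FPKM, and FCHO1 at 2.51 ± 0.209 and 1.91 ± 0.0420 FPKM. In contrast to the listed dynamins DNM1 and DNM2, DNM3 passed, as did EHD3 in contrast to EHD1 and EHD4, but the differences between these genes were not tested. By role, 6 of 26 other clathrin pit genes rose and 10 fell, and 6 of 28 other ESCRT genes rose and 2 fell. Of 18 Golgi and endosomal adaptor genes, a group that here includes the clathrin heavy chain CLTCL1, 6 rose, CLTCL1 among them, and 3 fell. Of 16 other HOPS, CORVET and endosome genes 5 rose and 1 fell, of 19 other retromer, sorting nexin, WASH and Commander genes 4 rose and 2 fell, of 11 other recycling genes 4 rose and 2 fell, and of 5 other caveolar genes 0 rose and 1 fell. These counts are read against the same shares of all genes, 17.1% and 18.4%, and differences between the roles were not tested.

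For 6 of the 40 genes an overlapping gene held more than 10% as many counts, and the strand setting of counting was not given, so reads may be shared. These were CLTB with ARL10 (33.8%), AP2B1 with TAF15 (76.1%, on the same strand), DNM1 with CIZ1 (312%), CAV2 with an antisense RNA (40.5%), HGS with ARL16 (41.5%) and VPS4A with COG8 (59.5%). ARL10 had the same log2 fold change as CLTB, 0.17 (FDR = 0.0679, edgeR), and CIZ1 fell by 0.21 on the log2 scale (FDR = 1.02e-04, edgeR). TAF15 also fell, by 0.15 on the log2 scale (FDR = 0.00177, edgeR), beside -0.03 for AP2B1, which did not pass. ARL16 and COG8 did not pass, and the antisense RNA at CAV2 was not tested. The other 34 genes had no such neighbor.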

How the data were processed

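RNA-Seq was analyzed for 6 libraries grouped by the sample titles. Per the submitters' processing notes, the authors used fastp, mapped reads to hg38 with HISAT2 2.0.5 and counted them per gene with featureCounts 1.5.0-p3. The authors deposited raw counts, without normalization, in 1 table with gene position and length, and the gene length in bases (another deposited quantity) was used for FPKM. The annotation release and strand setting are not given in the sources used here. Near-identical paralogs could share reads.

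Genes were filtered with filterByExpr, scaled by TMM and tested with edgeR 4.0.16 (R 4.3.3). The SE is the absolute log2 fold change divided by the square root of F, and 95% intervals used the t quantile. Alternatives were limma-voom and limma on log2(FPKM + 1) (limma 3.58.1), DESeq2 1.42.0, library size alone, no filter, a minimum of 10 counts per library, the replicate number as a block, and leaving out each library. Procedures were tested on simulated data. The changes put in were larger than those of the genes that passed here, and lay in genes with more counts than AMPH, BIN1, CAV1 and CAV2. Recovery of changes as small as those reported was therefore not tested. Totals and floors cover counting error only. Pairs of libraries of a group differed by more than sampling noise (chi-square per degree of freedom 1.77 to 2.46, at least 20.0 across groups) and were counted separately.

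The 40 genes, the list of 128 other genes, the pairs and the cell type markers were chosen with earlier results of these data known. Values are given for every gene that passed, per-library values also for absolute log2 fold changes over 0.3 and for the largest change of each role, and the 5 highest and 5 lowest log2 fold changes among the genes of the other list that passed are named. Human genome sequence was not used here.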

Additional observations from a re-analysis of the deposited data

How the results depend on the processing

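The log2 fold changes of the 12 genes that passed and of AMPH, CAV1 and CAV2 kept their sign in every alternative, while the ratios of EPN1/EPN2, DNM1/DNM2, CAV1/CAV2, VPS4A/VPS4B and EHD1/EHD4, whose groups overlapped, changed sign in at least 1 of the fits that left out a library. The filter of 10 counts in every library left 38 of the 40 genes, without AMPH and CAV2, which have no value there. Of the 40 genes, 8 to 10 rose and 2 fell with limma-voom, DESeq2, limma on log2(FPKM + 1), library size alone and the other filters, and leaving out 1 library gave 9 to 10 and 2 to 3. Of the 12 genes that passed, 10 passed in every setting. CLTC was lost on log2(FPKM + 1) (FDR = 0.106, limma), and without parental library 2 or BL-B01D1_R library 2. VPS26A was lost on log2(FPKM + 1) (FDR = 0.170, limma), with library size alone (FDR = 0.0565, edgeR), with DESeq2, and without parental library 3 or BL-B01D1_R library 1 or 3. AP2M1, not among the 12, passed without parental library 3. No gene passed the log2 threshold of 1 in any setting except AMPH, 1 gene, without parental library 1 (0 to 1 lower and 0 higher over the fits that left out 1 library). The cause was not tested. Among the other pathway genes, 21 to 31 rose and 15 to 23 fell, or 21 to 27 and 14 to 19 with 1 library left out. The median log2 fold change of the 40 genes stayed between 0.00033 and 0.019, or 0.0070 and 0.042 with 1 library left out. Replicate numbers are shared by the groups as a number only: deviations of same-numbered libraries correlated at -0.0081, -0.0196 and -0.0157, and with the replicate block 10 genes rose and 2 fell. The block left 29 other pathway genes higher and 19 lower. Scaling by TMM or by library size alone gave a median of all genes of 0.0038 or -0.0123. At 6 to 35 counts per library, AMPH, BIN1, CAV1 and CAV2 could not be resolved below the intervals given.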

Other observations

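In the list of 128 other pathway genes, some complexes that the 40 genes represent in part had further subunits past the test, named here after their values were seen. The HOPS and CORVET core subunits VPS11 and VPS16, partners of VPS18, rose, with VPS11 at 6.61 ± 0.434 FPKM in parental cells and 7.74 ± 0.0801 FPKM in BL-B01D1_R (log2 fold change 0.23, FDR = 0.00281, edgeR). VPS16 was at 7.56 ± 0.822 and 8.64 ± 0.551 FPKM with overlapping groups (log2 fold change 0.20, FDR = 0.0462, edgeR), and VPS39, a HOPS-specific subunit like VPS41, had a log2 fold change of -0.0076 (FDR = 0.921, edgeR). Of the 28 other ESCRT genes, 6 rose and 2 fell, against 17.1% and 18.4% of all genes tested. Those that rose included the ESCRT-III filament genes CHMP2A, at 51.1 ± 1.27 and 65.9 ± 1.61 FPKM (log2 fold change 0.37, FDR = 1.58e-10, edgeR), and CHMP1A, at 45.04 ± 0.890 and 52.9 ± 1.11 FPKM (log2 fold change 0.23, FDR = 9.17e-07, edgeR). Their relatives CHMP2B and CHMP1B did not pass, with log2 fold changes of 0.0080 and 0.08. The ESCRT-I gene VPS37C fell, from 12.9 ± 0.733 to 10.1 ± 0.0817 FPKM (log2 fold change -0.35, FDR = 6.17e-06, edgeR), while VPS28 of the same complex rose, from 16.8 ± 0.338 to 20.2 ± 0.478 FPKM (log2 fold change 0.27, FDR = 1.67e-05, edgeR). MVB12B of ESCRT-I also fell (log2 fold change -0.30, FDR = 0.0458, edgeR), and VPS37A, VPS37B, VPS37D, MVB12A and UBAP1 did not pass.

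AP-1, the Golgi and endosomal relative of AP-2, also had subunits that passed in both directions. Of its 8 genes, 4 rose (AP1B1, AP1G2, AP1M2 and AP1S1), 1 fell (AP1S2) and 3 did not pass (AP1G1, AP1M1 and AP1S3). Of all genes tested, 17.1% rose and 18.4% fell, and AP-1 was named here after its values were seen. AP1M2, its epithelial mu subunit, rose from 67.3 ± 1.48 to 79.8 ± 1.28 FPKM (log2 fold change 0.25, FDR = 2.24e-07, edgeR), and AP1S1, a sigma subunit, from 130.0 ± 0.482 to 141 ± 1.36 FPKM (log2 fold change 0.12, FDR = 0.00153, edgeR), whereas the alternative sigma subunit AP1S2 fell, as given above.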
